A study of Mus musculus with 6 samples.

Results

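The genes described here are 42 genes of protein entry, folding and quality control in the endoplasmic reticulum (ER) and of the unfolded protein response, out of 54100 genes in the count table. They were chosen by symbol, and for Ddit3, whose symbol stands on more than 1 row, the row with the most counts was taken. RNA was measured in fibro-adipogenic progenitors (FAPs), the Pdgfra+ mesenchymal progenitors of skeletal muscle, sorted from the plantaris of C57BL/6 mice at 1000 cells per tube. There were 3 libraries from overloaded and 3 from sham plantaris. Every library thus shares the strain, the muscle, the Pdgfra+ sort and a CEL-Seq2 type protocol, which tags transcripts near their 3' end. How the load was applied, for how long, the age of the mice and whether animals were pooled are not stated in the labels. The p-values therefore describe the variation among 6 libraries, some of which may be technical.

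A secreted or membrane protein enters the ER through the Sec61 channel while it is being made. There its signal peptide is cut off, oligosaccharyltransferase attaches N-linked glycans, and chaperones and disulfide isomerases fold it, while chains that fail to fold are sent back to the cytosol for ER-associated degradation. When unfolded chains build up, the membrane sensors Ire1 (gene Ern1), Atf6 and Perk (gene Eif2ak3) start the unfolded protein response. Ire1 splices the Xbp1 messenger RNA and Atf6 is released by proteolysis, and both products switch on chaperone genes. Counts per gene measure neither the splicing nor the cleavage. FAPs are the main producers of collagen and other matrix proteins in muscle, all of which pass through this pathway.

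The best known DNA element of this response is the ER stress element (ERSE), which reads CCAAT, 9 bases of any kind and CCACG, and through which Atf6 and Xbp1 act together with the CCAAT-binding factor NF-Y. It was looked for on both strands of the promoter windows of RefSeq, build GRCm38.p6, each from 250 bases before to 50 bases after a gene's start. Of the 42 genes, 34 had such a window, and 8 of these (23.5%) held the element, against 37 of 27025 genes with a window (0.137%) and 11 of the 5645 of them that were tested (0.195%). The element was first described in the counterparts of Hspa5, Hsp90b1 and Calr in other mammals, so the share is not independent of how these genes came to be known. The elements are shown as a description, since a choice of genes by their role in this response is not independent of them. Each is given on the strand of its gene, with the CCAAT and CCACG ends in capitals, or their complement where the element runs against the gene.
Pdia6 (chr12:17266491-17266509, plus strand): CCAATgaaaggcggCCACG
Creld2 (chr15:88819520-88819538, plus strand): CGTGGcgagcctcaATTGG
Canx (chr11:50325800-50325818, minus strand): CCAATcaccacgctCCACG
Hsp90b1 (chr10:86705638-86705656, minus strand): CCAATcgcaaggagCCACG
Hsp90b1 (chr10:86705533-86705551, minus strand): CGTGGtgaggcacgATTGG
Hspa5 (chr2:34772025-34772043, plus strand): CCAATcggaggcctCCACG
Calr (chr8:84847075-84847093, minus strand): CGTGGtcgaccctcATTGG
Dnajc3 (chr14:118937827-118937845, plus strand): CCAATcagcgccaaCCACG
Syvn1 (chr19:6046532-6046550, plus strand): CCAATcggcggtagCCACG
The first listed element of Hsp90b1 begins 212 bases and its other 107 bases before the start, that of Hspa5 65, of Pdia6 98, of Creld2 126, of Canx 145, of Calr 162, of Dnajc3 105 and of Syvn1 44. These distances are from the RefSeq start, and GENCODE M21, the source of the gene spans given with the results (GRCm38), starts Hspa5 upstream of its element. The 250 bases before the start are printed for the 2 genes with the smallest adjusted p among those with the element, again with its ends in capitals. Pdia6 lies on the plus strand and the window is chr12:17266339-17266588.
Pdia6: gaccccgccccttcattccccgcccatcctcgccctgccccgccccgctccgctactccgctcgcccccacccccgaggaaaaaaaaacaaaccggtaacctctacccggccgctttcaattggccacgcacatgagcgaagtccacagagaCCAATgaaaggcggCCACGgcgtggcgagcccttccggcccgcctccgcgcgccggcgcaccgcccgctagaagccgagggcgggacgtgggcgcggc
Creld2 also lies on the plus strand, with the window at chr15:88819396-88819645.
Creld2: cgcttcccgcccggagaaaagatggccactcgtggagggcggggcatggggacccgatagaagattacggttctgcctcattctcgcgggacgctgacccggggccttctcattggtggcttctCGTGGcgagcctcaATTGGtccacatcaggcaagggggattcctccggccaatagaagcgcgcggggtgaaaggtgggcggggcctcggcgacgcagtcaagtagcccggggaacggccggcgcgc
The shorter element ERSE-II, which reads ATTGG, any base and CCACG, was present for 2 of the 34 genes, Dnajb11 and Herpud1 (5.88%). It was in 0.0444% of all genes with a window and 0.142% of the tested ones. The letters TGACGTGG of the unfolded protein response element were found for 0 of these 34 genes. They were found for 0.714% of all genes with a window and 1.33% of the tested ones. A match is a run of letters in this window and not a measured binding site.

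In FAPs of overloaded plantaris, most genes that bring proteins into the ER and fold them were at about 2 times the sham level. None of the 3 sensor and factor genes that could be tested passed the test, and 3 genes are too few to set beside a share. Ern1 reached the count threshold in too few libraries to be tested. Of the 41 genes with enough counts to test, 28 rose, 0 fell and 13 were not called by edgeR's quasi-likelihood test at a Benjamini-Hochberg adjusted p under 0.05. Over all 7207 tested genes, 15% were called higher, 14.3% lower and 29.3% in either direction. These shares are not compared at equal precision. The median standard error (SE) of the log2 fold change was 0.33 over all tested genes, larger than that of most of the 41. At an unadjusted p under 0.05 the 41 genes held 30 higher and 0 lower. DESeq2 called 27 higher and 0 lower, and limma-voom 28 and 0. The log2 fold change, overloaded over sham, was above 0 for 39 of the 41 genes, against 48.8% of all tested genes. Its median was 0.98 for the 41 genes and -0.02 for all tested genes.

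Together the 42 genes held 19621, 17229 and 18464 CPM (counts scaled to a total of 1e+06 over the tested genes, with trimmed mean of M-values factors) in overloaded libraries 1 to 3, against 9285, 9822 and 9245 CPM in sham libraries 1 to 3. Every overloaded library was above every sham library, and the ratio of the group means was 1.95. For 30 of the 41 genes the lowest overloaded library was above the highest sham library, while the groups were apart in either direction for 41.5% of all tested genes. In these bulk samples more RNA per cell and more cells that hold it cannot be told apart.

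**Figure D1:**
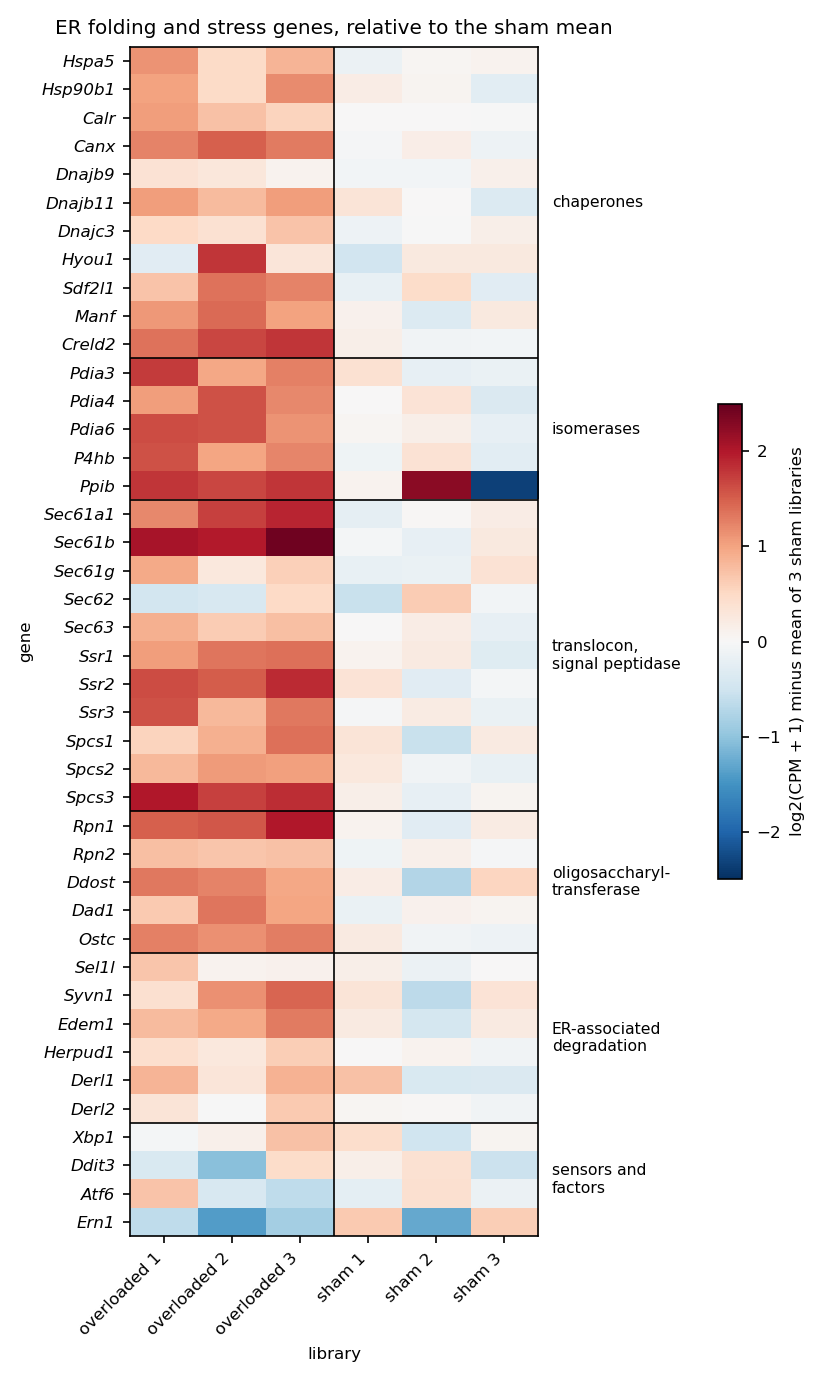
Level of each of the 42 genes in every library as log2(CPM + 1) minus the mean of the 3 sham libraries, with overloaded libraries on the left, sham on the right and horizontal lines between the steps. Red is above and blue below the sham mean. The chaperone, isomerase, translocon and oligosaccharyltransferase rows are red in nearly all overloaded libraries, and the 4 sensor and factor rows at the bottom are mixed.

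Total counts per library were 850857 to 1124210 in overloaded and 500402 to 754456 in sham muscle (exact two-sided permutation p = 0.1, the smallest that 3 against 3 can give). All 11 FAP markers passed the filter on counts, 2 were called higher and 6 lower, and their sum was 77981 ± 6932 CPM in overloaded and 68327 ± 8669 CPM in sham libraries (SD, n = 3 each). The 2 higher ones, Col1a1 and Col3a1, summed to 55043 ± 3525 CPM in overloaded and 21499 ± 2559 CPM in sham libraries, while the other 9, which held all 6 lower ones, summed to 22938 ± 4125 CPM in overloaded and 46827 ± 6931 CPM in sham libraries. Plasma cells are rich in ER, and of 8 markers of B and plasma cells Igkc, Tnfrsf17 and Cd79b were at 0 counts in all libraries, while the others summed to 0 to 2.51 CPM in overloaded and 4.04 to 11.5 CPM in sham libraries. Endothelial markers summed to 33.5 to 74.0 CPM in overloaded and 122 to 216 CPM in sham libraries, muscle fibre markers to 21.2 to 30.1 and 35.8 to 56.0 CPM, and leukocyte markers to 1.92 to 20.1 and 15.8 to 24.9 CPM. Satellite cell markers summed to 10.4 to 30.1 CPM in overloaded and 22.9 to 47.7 CPM in sham libraries, Schwann cell markers to 1.16 to 6.73 and 2.86 to 24.9 CPM, tenocyte markers to 21.3 to 54.4 and 20.7 to 41.5 CPM, and pericyte and smooth muscle markers to 98.3 to 142 and 99.6 to 176 CPM. Single genes led these sums. Tek led the endothelial sum, with 33, 19 and 22 counts in overloaded and 89, 51 and 93 in sham libraries. Pecam1 had 5, 4 and 1 counts in overloaded and 7, 4 and 2 in sham libraries. The leading genes of the muscle fibre, satellite cell and pericyte sums were Tnnt3, Des and Cspg4. A sum led by a single gene does not measure the number of cells. Olfactory and vomeronasal receptor genes, whose products belong to sensory neurons, made up 306, 1080 and 230 CPM of the library total in overloaded libraries 1 to 3 and 1420, 1785 and 778 CPM in sham libraries 1 to 3 (exact two-sided permutation p = 0.2). With that share as a covariate, 19 of the 42 genes were called higher and 0 lower, and 488 and 381 of all tested genes. Its part in the results was not tested beyond this fit.

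Among the 11 chaperones and co-chaperones, 9 rose and 0 fell, and 2 missed the threshold, with a median log2 fold change of 0.91. Their summed level was 9256 ± 869 CPM in overloaded and 4974 ± 197 CPM in sham libraries (SD, n = 3 each). Hspa5 (BiP, the Hsp70 of the ER lumen that also holds the sensors inactive, chr2:34771970-34777547) stood at 5353, 3440 and 4443 CPM in overloaded libraries 1 to 3, against 2229, 2568 and 2625 CPM in sham libraries 1 to 3. Overloaded library 1 was the highest, and the lowest overloaded library was above the highest sham library. The log2 fold change was 0.83 (SE 0.20, edgeR adjusted p = 0.00181). Creld2, an ER-resident protein with disulfide isomerase activity (chr15:88819646-88826683), had 182, 224 and 244 CPM in overloaded libraries, against 77.3, 66.4 and 67.3 CPM in sham libraries. The log2 fold change, 1.62 with an SE of 0.24 and an edgeR adjusted p of 4.17e-06, was the largest of the 11. Canx, the membrane lectin calnexin that retains glycoproteins until they are folded (chr11:50293961-50325673), had 765, 912 and 791 CPM in overloaded libraries, against 315, 363 and 295 CPM in sham libraries. Every overloaded library thus held more than 2 times the Canx level of any sham library, at a log2 change of 1.35 (SE 0.20, edgeR adjusted p = 5.55e-06).

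Manf, a secreted ER stress-inducible factor that binds BiP (chr9:106838312-106891979), stood at 873, 1101 and 822 CPM in overloaded libraries, against 442, 321 and 486 CPM in sham libraries. The groups did not overlap, and the log2 fold change was 1.16 (SE 0.21, edgeR adjusted p = 7.73e-05). For Hsp90b1 (Grp94, the Hsp90 of the ER, chr10:86690209-86705509) the overloaded libraries had 863, 594 and 970 CPM and the sham libraries 488, 446 and 357 CPM. Overloaded library 2 was the closest to sham, and the log2 fold change was 0.91 (SE 0.21, edgeR adjusted p = 0.00138). Sdf2l1, which works with the Hsp40 Dnajb11 (chr16:17130138-17132383), had 83.7, 132 and 121 CPM in overloaded libraries, against 44.4, 70.5 and 41.7 CPM in sham libraries, again without overlap (log2 fold change 1.13, SE 0.27, edgeR adjusted p = 0.00212).

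Of the other chaperone genes, Calr, the soluble lectin calreticulin, averaged 1072 ± 187 CPM in overloaded and 619 ± 5.41 CPM in sham libraries (SD, n = 3 each; log2 fold change 0.79). Dnajb11, an Hsp40 partner of BiP, averaged 80.9 ± 8.15 CPM in overloaded and 41.8 ± 9.63 CPM in sham libraries (log2 fold change 0.96), and its call was lost without sham replicate 3 and with the receptor-read covariate (adjusted p from 0.00839 to 0.160 over 15 alternatives). Dnajc3 (p58IPK, a BiP co-chaperone and inhibitor of Perk) had 413 to 517 CPM in overloaded and 289 to 348 CPM in sham libraries, a log2 fold change of 0.54 at an adjusted p of 0.0428 by edgeR. That call was lost in 8 of 15 alternatives, among them the fits without overloaded replicate 3 and without sham replicate 1, 2 or 3, with adjusted p from 0.0142 to 0.494. Dnajb9 (ERdj4, an Hsp40 that restrains Ire1, chr12:44205559-44210326) had 147, 139 and 121 CPM in overloaded libraries, against 110, 110 and 125 CPM in sham libraries. The groups overlapped, and its log2 fold change of 0.24 had a 95% interval of -0.23 to 0.70 (edgeR adjusted p = 0.471). Hyou1, a large Hsp70-related nucleotide exchange factor of BiP, was at 90.4, 382 and 138 CPM in overloaded libraries, against 78.8, 131 and 132 CPM in sham libraries. Overloaded library 2 alone held the high value, and the interval of the log2 fold change, -0.74 to 2.41, was among the widest. Without overloaded replicate 1 Hyou1 was called higher, as it was without a count filter and with the receptor-read covariate, and its log2 fold change ran from 0.02 to 1.54 over the alternatives. With the receptor-read covariate Hspa5, Hsp90b1, Calr, Dnajb11 and Dnajc3 were no longer called.

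The thiol and proline isomerases, which form disulfide bonds and turn proline bonds, had the highest median log2 fold change of the 6 steps, 1.32, although the steps were not tested against each other. Of 5 genes, 4 rose, 0 fell and 1, Ppib, was not called. The step summed to 3484 ± 573 CPM in overloaded and 1322 ± 170 CPM in sham libraries (SD, n = 3 each). Pdia6, a disulfide isomerase that also tempers Ire1 (chr12:17266545-17284770), stood at 2506, 2429 and 1756 CPM in overloaded libraries, against 843, 894 and 705 CPM in sham libraries. Even the lowest overloaded value was well above the highest sham value, and the log2 fold change was 1.45 (SE 0.20, edgeR adjusted p = 2.23e-06). Pdia3 (ERp57, the isomerase that works with calnexin and calreticulin, chr2:121413775-121438687) had 922, 533 and 658 CPM in overloaded libraries, against 357, 236 and 242 CPM in sham libraries (log2 fold change 1.34, SE 0.23, edgeR adjusted p = 4.04e-05).

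P4hb, protein disulfide isomerase itself and the beta subunit of collagen prolyl 4-hydroxylase (chr11:120560298-120573253), had 588, 386 and 455 CPM in overloaded libraries, against 180, 249 and 161 CPM in sham libraries. Its log2 fold change was 1.29 (SE 0.22, edgeR adjusted p = 5.01e-05). Pdia4 (ERp72, chr6:47796141-47813430) was lower in abundance, with 48.1, 70.2 and 53.2 CPM in overloaded libraries, against 22.9, 29.0 and 17.5 CPM in sham libraries. Neither gene's groups overlapped, and Pdia4 changed by 1.32 on the log2 scale (SE 0.34, edgeR adjusted p = 0.00317). All 4 calls held in each of the 15 alternatives. Ppib (cyclophilin B, a prolyl isomerase of procollagen, chr9:66060222-66066623) had only 17, 12 and 14 counts in overloaded and 3, 11 and 0 counts in sham libraries. At 22.8 CPM, sham library 2 was above every overloaded library, of which the highest had 16.4 CPM. Its log2 fold change of 1.02 (95% interval -0.43 to 2.47, edgeR adjusted p = 0.296) became 2.84 and was called without sham replicate 2. In that fit Ppib passed the filter on counts only through the overloaded libraries, so the call is not independent of the filter.

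At the entry to the ER, 9 of 11 translocon and signal peptidase genes rose and 0 fell, while 2 missed the threshold. The median log2 fold change was 1.25. They summed to 3034 ± 382 CPM in overloaded and 1671 ± 285 CPM in sham libraries (SD, n = 3 each). Sec61b, the beta subunit of the channel (chr4:47474658-47483242), had 82.7, 79.0 and 108 CPM in overloaded libraries, against 18.6, 16.6 and 22.9 CPM in sham libraries. Each overloaded library exceeded each sham library more than 3 times over, and the log2 fold change, 2.18 with an SE of 0.31 and an edgeR adjusted p of 3.52e-06, was the largest of the 41 genes. However, 64.6% of the 31-base words in the last 300 bases of its transcripts also occur in 3 predicted genes, so its counts are uncertain. Sec61a1, the pore-forming subunit (chr6:88503579-88518905), had 132, 187 and 215 CPM in overloaded libraries, against 48.7, 58.1 and 64.6 CPM in sham libraries (log2 fold change 1.63, SE 0.26, edgeR adjusted p = 1.21e-05). The gamma subunit gene Sec61g averaged 26.1 ± 6.34 CPM in overloaded and 16.8 ± 4.11 CPM in sham libraries and was not called (log2 fold change 0.62, 95% interval -0.20 to 1.44). It too shares sequence, 35.2% of the same words, with 10 other genes.

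Ssr1, Ssr2 and Ssr3, subunits of the translocon-associated complex, which helps chains into the channel, all rose. Ssr1 (chr13:37966605-37994217) had 679, 829 and 849 CPM in overloaded libraries, against 349, 382 and 265 CPM in sham libraries (log2 fold change 1.25, SE 0.21, edgeR adjusted p = 2.66e-05). Ssr2 (chr3:88575876-88588419) had 88.5, 81.5 and 104 CPM in overloaded libraries, against 35.8, 22.8 and 26.9 CPM in sham libraries (log2 fold change 1.66, SE 0.29, edgeR adjusted p = 6.68e-05). Ssr3 (chr3:65379655-65392623) had 653, 382 and 543 CPM in overloaded libraries, against 212, 249 and 192 CPM in sham libraries (log2 fold change 1.28, SE 0.22, edgeR adjusted p = 4.56e-05). In none of the 3 genes did the groups overlap. Of the signal peptidase genes, Spcs3 (chr8:54520433-54529998) had 79.8, 65.2 and 71.7 CPM in overloaded libraries, against 21.5, 16.6 and 20.2 CPM in sham libraries. Its libraries were tightly grouped and far apart between groups (log2 fold change 1.87, SE 0.32, edgeR adjusted p = 4.44e-05). Spcs2 had 389 to 468 CPM in overloaded and 196 to 266 CPM in sham libraries (log2 fold change 0.96), and Spcs1 averaged 98.1 ± 28.8 CPM in overloaded and 50.9 ± 15.4 CPM in sham libraries (0.91). Spcs1 lost its call by DESeq2 and without overloaded replicate 3 or sham replicate 2, with adjusted p from 0.00814 to 0.300 over the alternatives.

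Sec62 and Sec63 form the complex that serves chains imported after their synthesis. Sec63, which recruits BiP to the channel, rose to 195 ± 16.7 CPM in overloaded libraries, against 115 ± 15.6 CPM in sham libraries (SD, n = 3 each; log2 fold change 0.77, edgeR adjusted p = 0.00928), and was not called without sham replicate 3. Its partner Sec62 (chr3:30792875-30821263) had 401, 420 and 783 CPM in overloaded libraries, against 375, 867 and 526 CPM in sham libraries. One library of each group stood high and the groups overlapped throughout, with a log2 fold change of -0.13 (95% interval -0.84 to 0.57, edgeR adjusted p = 0.806). Sec62 was the only 1 of the 11 with a log2 fold change below 0. Sec63 and Spcs1 were not called with the receptor-read covariate.

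All 5 of the 42 genes that encode oligosaccharyltransferase subunits rose. The step summed to 1755 ± 105 CPM in overloaded and 795 ± 36.2 CPM in sham libraries (SD, n = 3 each), with a median log2 fold change of 1.07. Rpn1 (ribophorin I, chr6:88084482-88105304) had 397, 414 and 566 CPM in overloaded libraries, against 149, 114 and 160 CPM in sham libraries. At a log2 fold change of 1.69, SE 0.22, it had the smallest adjusted p of all 41 genes, 8.4e-07 by edgeR. Ostc, a subunit that joins the enzyme to the translocon (chr3:130695912-130709444), had 375, 347 and 379 CPM in overloaded libraries, against 182, 147 and 143 CPM in sham libraries (log2 fold change 1.22, SE 0.21, edgeR adjusted p = 4.71e-05).

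Dad1, a small membrane subunit (chr14:54235479-54254104), had 291, 472 and 370 CPM in overloaded libraries, against 165, 201 and 194 CPM in sham libraries (log2 fold change 1.02, SE 0.22, edgeR adjusted p = 0.000642). Ddost, a further subunit (chr4:138304730-138312628), had 183, 173 and 142 CPM in overloaded libraries, against 83.0, 43.6 and 106 CPM in sham libraries (log2 fold change 1.07, SE 0.26, edgeR adjusted p = 0.00237). Rpn2 (ribophorin II, chr2:157279017-157326319) had 393, 374 and 389 CPM in overloaded libraries, against 216, 253 and 229 CPM in sham libraries. The groups were apart for all 3, and Rpn2 had the smallest difference of the step (log2 fold change 0.73, SE 0.20, edgeR adjusted p = 0.00632). Each of the 5 calls held in every fit that left out 1 library, and Rpn2 and Ddost lost theirs with the receptor-read covariate.

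**Figure D2:**
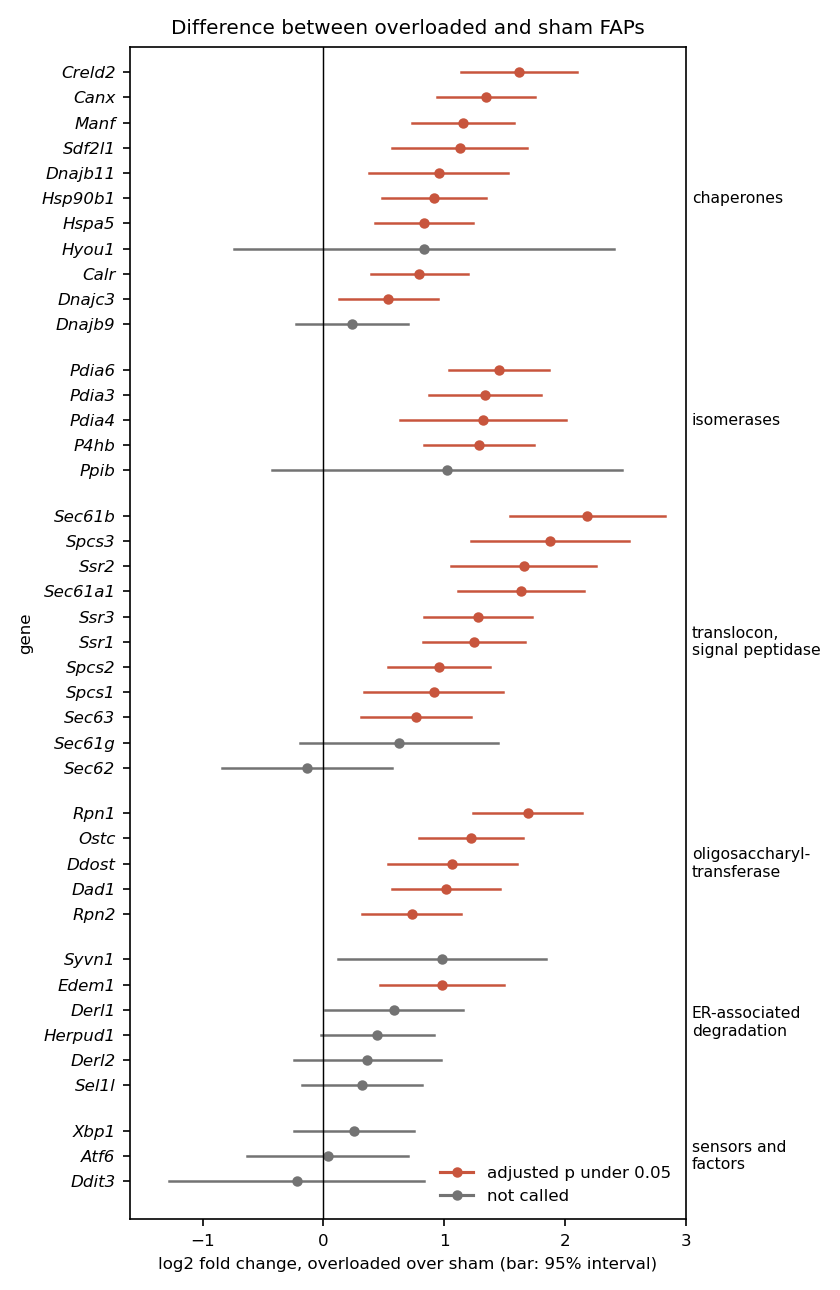
Log2 fold change, overloaded over sham, of the 41 tested genes by step, with 95% intervals as bars. Red marks the 28 genes with an adjusted p under 0.05 and grey the 13 that were not called. The intervals of the 3 sensor and factor genes all include 0, and those of the called genes lie above 0.

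Most genes of ER-associated degradation did not pass the test. Of 6 genes, 1 rose and 0 fell, and 5 missed the threshold, a share of 16.7% called, near the 15% called higher over all tested genes. The median log2 fold change was 0.52. At an unadjusted p under 0.05 there were 3 higher and 0 lower. They summed to 605 ± 76.4 CPM in overloaded and 405 ± 60.6 CPM in sham libraries (SD, n = 3 each). Edem1, a lectin-like protein that helps take mannose-trimmed glycoproteins out of the folding cycle (chr6:108828641-108859356), had 119, 132 and 169 CPM in overloaded libraries, against 80.2, 49.8 and 79.4 CPM in sham libraries. The groups did not overlap, and the log2 fold change was 0.98 (SE 0.25, edgeR adjusted p = 0.00341). The call was lost with the receptor-read covariate (adjusted p 0.00185 to 0.153 over the alternatives).

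The ubiquitin ligase gene Syvn1 (Hrd1) had a like log2 fold change of 0.98 from few counts, 19, 25 and 34 in overloaded and 12, 4 and 13 in sham libraries (95% interval 0.12 to 1.84, edgeR adjusted p = 0.0796), and it was called without overloaded replicate 1. Sel1l, the adaptor that holds the Hrd1 complex together (chr12:91806043-91849157), had 149, 97.8 and 99.5 CPM in overloaded libraries, against 102, 83.0 and 92.8 CPM in sham libraries. The groups overlapped (log2 fold change 0.32, 95% interval -0.18 to 0.82, edgeR adjusted p = 0.351). Herpud1, a stress-inducible partner of the Hrd1 complex, averaged 150 ± 18.6 CPM in overloaded and 110 ± 6.27 CPM in sham libraries. Its groups did not overlap, but at a log2 fold change of 0.45 (95% interval -0.02 to 0.91, edgeR adjusted p = 0.144) it was not called. The derlins form part of the exit route from the ER. Derl1 averaged 115 ± 23.7 CPM in overloaded and 76.0 ± 37.1 CPM in sham libraries, and Derl2 averaged 54.9 ± 12.8 CPM in overloaded and 42.8 ± 2.12 CPM in sham libraries. Neither was called (edgeR adjusted p = 0.116 and 0.392), but Derl1 was called higher without overloaded replicate 2, without sham replicate 1 and after thinning to the smallest library, with a log2 fold change from 0.32 to 1.12 over the alternatives.

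**Figure D3:**
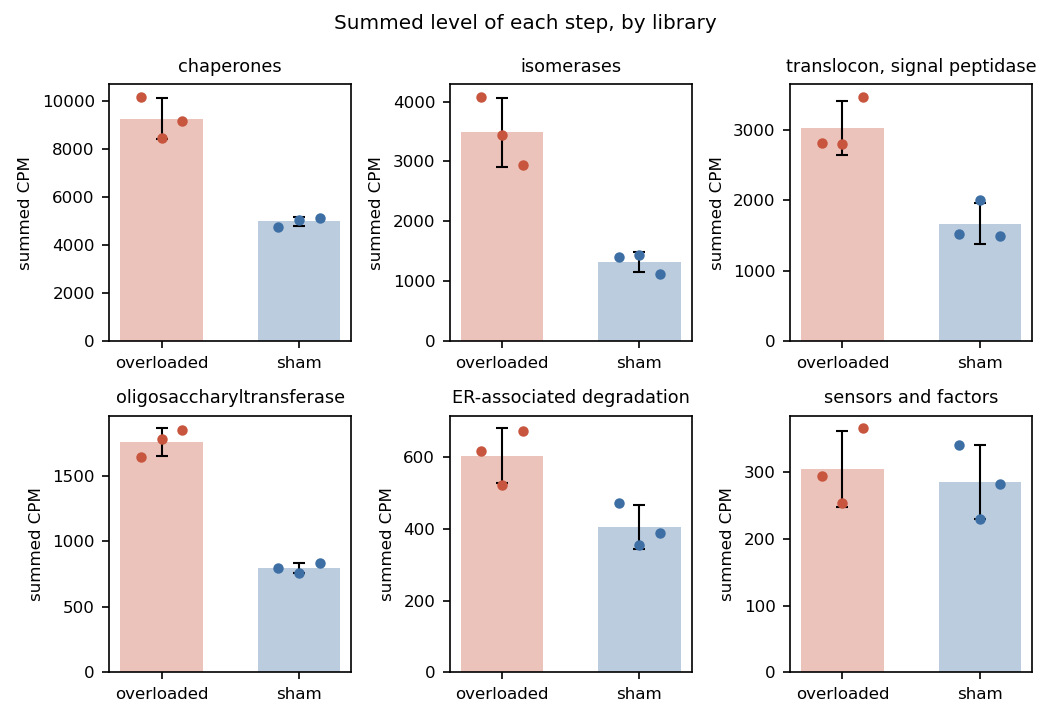
Summed CPM of the genes of each step in every library, overloaded left and sham right, with points for libraries, bars for means and error bars for the SD of 3 libraries. The groups are apart in the first 5 panels, and in the panel of sensors and factors the libraries of both groups lie among each other.

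The sensors and transcription factors of the response were not called. Of the 4 genes 3 could be tested, and 0 were higher or lower, also 0 at an unadjusted p under 0.05 and 0 by DESeq2 or limma-voom. Over all tested genes 29.3% were called in either direction, so 0 of 3 cannot set these genes apart. Together the 4 genes stood at 304 ± 56.8 CPM in overloaded and 285 ± 55.3 CPM in sham libraries (SD, n = 3 each). Xbp1, the transcription factor made after splicing by Ire1 (chr11:5520659-5525893), had 174, 196 and 297 CPM in overloaded libraries, against 242, 127 and 187 CPM in sham libraries. Its groups overlapped, and the log2 fold change of 0.25 had a 95% interval of -0.25 to 0.75 (edgeR adjusted p = 0.479). Atf6, the sensor that becomes a transcription factor on cleavage (chr1:170704674-170867771), had 96.2, 43.9 and 37.0 CPM in overloaded libraries, against 48.7, 76.7 and 52.5 CPM in sham libraries. Overloaded library 1 held the highest value and library 3 the lowest (log2 fold change 0.03, 95% interval -0.63 to 0.70, edgeR adjusted p = 0.952). Without overloaded replicate 1 the log2 fold change of Atf6 was -0.50.

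Ddit3 (Chop, a factor linked to cell death under lasting stress, chr10:127290774-127296288) had 11, 5 and 17 counts in overloaded and 11, 9 and 7 counts in sham libraries. These were 10.6, 6.27 and 19.7 CPM in overloaded and 15.8, 18.7 and 9.42 CPM in sham libraries, and the groups overlapped (log2 fold change -0.22, 95% interval -1.28 to 0.84, edgeR adjusted p = 0.796). At so few counts only a large change in Ddit3 could have been detected. Ern1, the gene of Ire1 (chr11:106394650-106487852), reached the filter threshold in 0 overloaded and 2 sham libraries, too few to be tested. It had 14, 6 and 10 counts in overloaded and 24, 4 and 25 counts in sham libraries. These were 13.5, 7.52 and 11.6 CPM in overloaded and 34.4, 8.30 and 33.6 CPM in sham libraries, with sham library 2 within the overloaded values. Fitted without the count filter, Ern1 had a log2 fold change of -1.18 (edgeR adjusted p = 0.134). Without sham replicate 2, its lowest sham library, it was called lower (-1.61, edgeR adjusted p = 0.0108). There Ern1 passed the filter through the 2 remaining sham libraries, where it was high, so that call is not independent of the filter. Over the 8 alternatives that gave a value, its adjusted p ran from 0.0108 to 0.286.

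**Figure D4:**
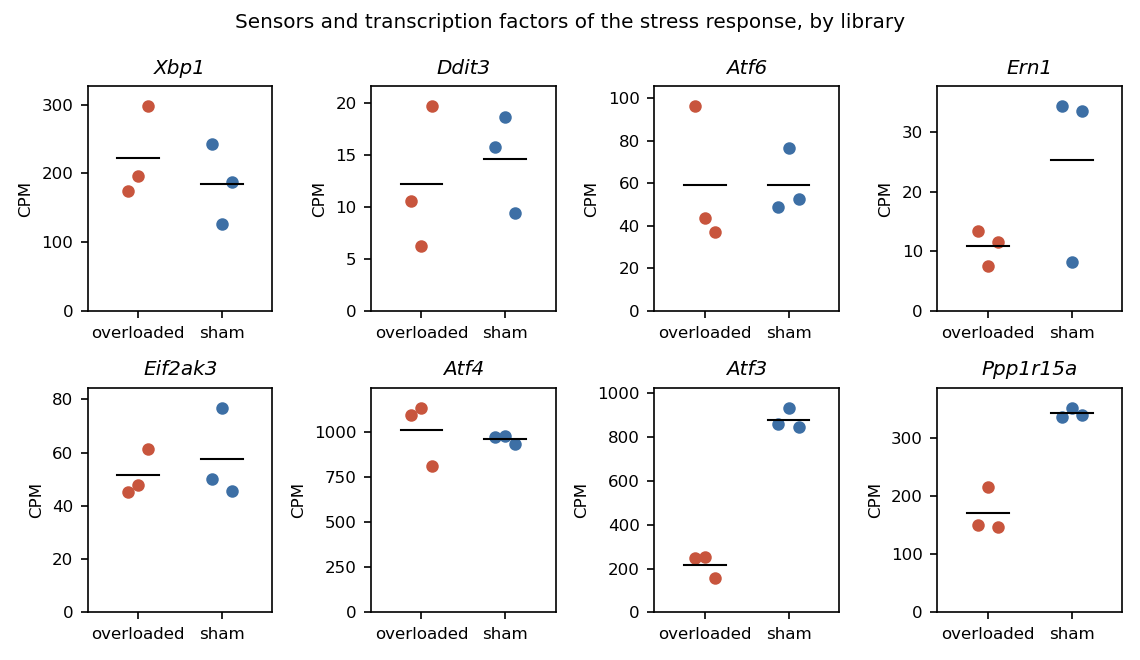
CPM of the 4 sensor and factor genes and of 4 genes of the integrated stress response in every library, overloaded left and sham right, with a line at each mean. Atf3 and Ppp1r15a are lower in all 3 overloaded libraries, and the libraries of both groups overlap for the other 6 genes.

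The Perk arm and the wider integrated stress response, which share the factor Atf4, moved in both directions. Of 15 genes listed, 13 were tested, and 5 rose, 4 fell and 4 missed the threshold. Among all tested genes, 15% were called higher and 14.3% lower. Atf3, a stress-induced repressor, fell to 218 ± 54.0 CPM in overloaded libraries, against 880 ± 46.5 CPM in sham libraries (SD, n = 3 each; log2 fold change -2.01, edgeR adjusted p = 1.81e-08). Ppp1r15a (Gadd34, which restores translation) fell to 172 ± 38.9 CPM, against 343 ± 8.39 CPM in sham libraries (edgeR adjusted p = 0.00062). That call was lost with the receptor-read covariate (adjusted p = 0.127). Vldlr, a lipoprotein receptor induced through Atf4, fell by 2.13 on the log2 scale, while Eif2s1, the translation factor that Perk phosphorylates, rose by 1.24 and was not called with the covariate (adjusted p = 0.0942). The other called genes, named here after their values were seen, were Asns (log2 fold change 2.40), Cebpb (0.62), Sesn2 (1.11) and Ddit4 (1.21), all higher, and Nupr1 (-1.23), which was lower. Asns encodes asparagine synthetase and is a target of Atf4. It passed the filter on counts only through the overloaded libraries, at 25.2 ± 4.06 CPM, against 4.48 ± 4.81 CPM in sham libraries (SD, n = 3 each), so that it had to differ to be tested. The calls of the other 4 depended on the fit. Ddit4 lost its call in 9 of 14 alternatives, Sesn2 in 6 of 14, Cebpb in 4 of 15 and Nupr1 in 2 of 15. All 4 were lost with the covariate. Ddit4, Sesn2 and Cebpb were also lost without overloaded replicate 3 or sham replicate 3, Ddit4 and Sesn2 without sham replicate 1, Sesn2 without overloaded replicate 1, and Ddit4, Cebpb and Nupr1 without sham replicate 2. The highest adjusted p was 0.877 for Ddit4, 0.672 for Sesn2, 0.301 for Cebpb and 0.248 for Nupr1. Eif2ak3, the gene of Perk, and Atf4, also named outside the rule, were at 51.4 ± 8.68 and 1013 ± 175 CPM in overloaded libraries, against 57.5 ± 16.8 and 961 ± 25.1 CPM in sham libraries, and neither was called (edgeR adjusted p = 0.776 and 0.818). Trib3 and Chac1, targets of Atf4 and Chop, were not tested, with 6 and 8 counts in all overloaded libraries together, against 2 and 2 in sham. Over the alternatives the higher calls of this list ranged from 1 to 5 and the lower ones from 2 to 4.

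Further genes of the pathway were counted by the same steps, beside 15% called higher and 14.3% lower over all tested genes. Of 33 other ER chaperones and foldases tested, 16 rose and 1 fell, and 16 missed the threshold. They included Serpinh1, the collagen chaperone Hsp47, at 1258 ± 229 CPM in overloaded and 503 ± 57.0 CPM in sham libraries (SD, n = 3 each; log2 fold change 1.32, edgeR adjusted p = 1e-05), and the disulfide isomerases Pdia5 (log2 fold change 1.78) and Txndc5 (1.52) and the calcium-binding protein Rcn3 (1.31). Also among the 16 were Fkbp11, Fkbp10, Ero1l and Mogs, which passed the filter on counts in all overloaded but not all sham libraries. The gene that fell, Tmx3, named after its values were seen, encodes a membrane-bound thioredoxin (-0.68), and its call was lost in 8 of 15 alternatives, among them DESeq2, the covariate and the fits without overloaded replicate 2 or 3 or sham replicate 1, 2 or 3 (adjusted p up to 0.303). Of 19 other targeting, translocation and glycosylation genes tested, 14 rose and 0 fell, and 5 missed the threshold, with 0 lower in every alternative, also by DESeq2 and limma-voom. Srp68, 1 of the 14, passed the filter on counts in all overloaded but not all sham libraries. The smallest adjusted p was that of Srprb, a subunit of the receptor of the signal recognition particle, at 129 ± 18.4 CPM in overloaded and 31.2 ± 4.18 CPM in sham libraries (log2 fold change 2.06, edgeR adjusted p = 1.01e-06). Ssr4 (1.73), the catalytic oligosaccharyltransferase subunit Stt3a (1.34) and the signal recognition particle protein Srp72 (1.26) followed. The 5 genes not called are named outside the rule. They were the other catalytic subunit, Stt3b (0.20, edgeR adjusted p = 0.524), the subunits Magt1 (0.30, 0.400) and Tusc3 (-0.11, 0.809), Srp14 (0.43, 0.161) and Sec11a (0.42, 0.181). A difference between Stt3a and Stt3b was not tested.

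Of 21 other ER-associated degradation genes tested, 7 rose and 0 fell, and 14 missed the threshold. Ube2g2, 1 of the 7, passed the filter on counts in all overloaded but not all sham libraries. The shares over all tested genes were 15% higher and 14.3% lower. Over the alternatives the higher calls ranged from 8 to 16 for the chaperones and foldases, 7 to 14 for targeting and glycosylation and 3 to 7 for degradation, each lowest with the receptor-read covariate. For degradation 1 gene was called lower with library size only, a minimum count of 30, limma-voom or without overloaded replicate 2. Vcp, the ATPase that pulls chains out of the membrane, averaged 516 ± 50.7 CPM in overloaded and 240 ± 53.1 CPM in sham libraries (SD, n = 3 each; log2 fold change 1.11, edgeR adjusted p = 0.000176). Its cofactor Nploc4 (1.44), the ubiquitin-conjugating enzyme Ube2j2 (1.06) and the shuttle protein Rad23b (0.87) were also higher, Rad23b not with the covariate (0.56, adjusted p = 0.262). These proteins serve degradation in the cytosol as well. A further list held other membrane transcription factors and proteases and also the cell death gene Bcl2l11. Of its 6 tested genes 1 rose, 2 fell and 3 missed the threshold, beside 15% called higher and 14.3% lower over all tested genes. Creb3 had a log2 fold change of 1.72 and the protease gene Mbtps1, whose product cleaves Atf6, one of -0.65. Creb3 passed the filter on counts only through the overloaded libraries, at 19.1 ± 3.60 CPM, against 5.56 ± 1.51 CPM in sham libraries (SD, n = 3 each). It lost its call by DESeq2, with the covariate and without overloaded replicate 1 or 3 or sham replicate 2 or 3 (adjusted p up to 0.239), and Mbtps1 by DESeq2, with the covariate, with no count filter and without overloaded replicate 1, 2 or 3 or sham replicate 1 or 2 (up to 0.519). The third called gene was Bcl2l11, which encodes the cell death protein Bim (-1.15), not called with the covariate (adjusted p = 0.0752). Of the 50 called genes in these other lists, 8 passed the filter on counts in all overloaded libraries but fewer than 3 sham libraries, and are named for that alone: Asns, Creb3, Fkbp11, Fkbp10, Ero1l, Mogs, Srp68 and Ube2g2.

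Genes with and without the ERSE in their promoter window had close medians, given as a description with no test. The 8 genes with the element had a median log2 fold change of 0.95, ranging from 0.54 to 1.62, and 7 of them rose. The 25 tested genes with a window and no element had a median of 0.96, ranging from -0.22 to 2.18, and 16 of them rose. The windows of Sec61b (2.18, from uncertain counts) and Rpn1 (1.69) held no ERSE, ERSE-II or TGACGTGG, while Creld2, with the ERSE, was at 1.62. Spcs3 (1.87), Ssr2 (1.66) and Sec61a1 (1.63) had no window and cannot be placed. Whether the element had a part in the differences was not tested.

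**Figure D5:**
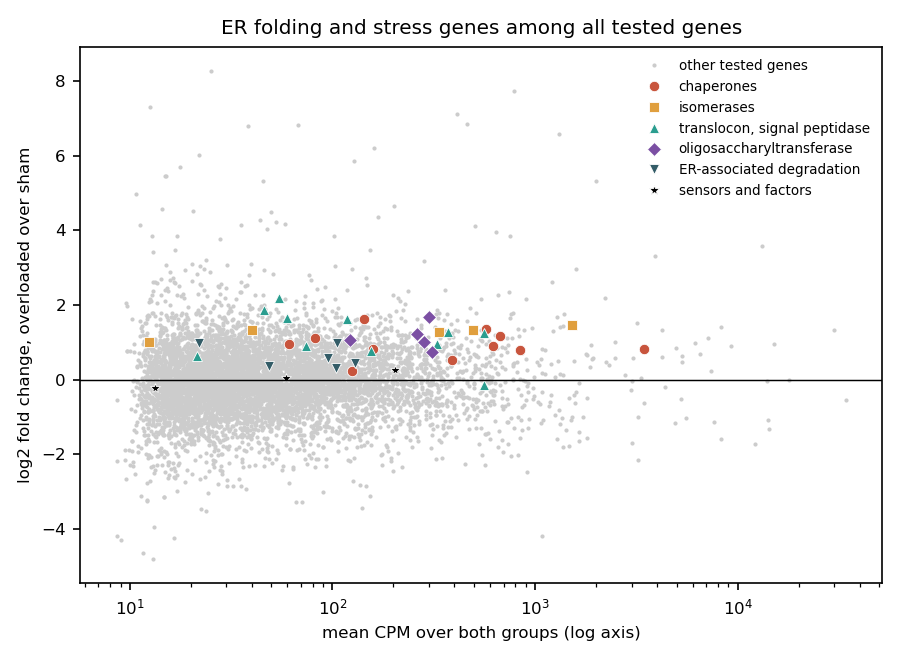
Log2 fold change, overloaded over sham, against the mean CPM of both groups for all 7207 tested genes (grey) and the 41 tested genes of the ER pathway, coloured by step. The coloured points reach from -0.22 to 2.18 and most lie above 0, within the range of the grey points.

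Exons of 18 of the 42 genes overlap those of another annotated gene, on the opposite strand for 17 and on the same strand for 4, and 7 genes share 31-base words of their last 300 bases with other genes. Of the 18 genes with neither, 11 rose, as did 17 of the 24 with either. Since the strand setting of the counting is not given, reads of overlapping genes cannot be told apart, and the counts of Pdia3, Pdia6, Pdia4, Ppib, Manf, Hsp90b1, Sec61a1, Sec62, Sec63, Ssr2, Spcs1, Spcs3, Rpn1, Rpn2, Syvn1, Derl2, Dnajb9 and Ddit3 are uncertain to that extent. The filter on counts was passed in all 6 libraries by 38 genes, which included all 28 that rose. Ppib, Syvn1 and Ddit3 were tested although 1 or more libraries were under the threshold of 12.5 CPM of the library total.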

How the data were processed

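RNA was counted in 3 overloaded and 3 sham libraries. The authors deposited 1 table of raw counts per gene for 54100 genes. The submitters' processing notes name build GRCm38 and, with no order, featureCounts 2.0.1, HISAT2 2.2.1, DESeq2 1.28.1 and Trim Galore 0.6.6. For the annotation release, the strand setting, reads with several positions and molecular identifiers, the labels and notes state no method. If identifiers were not used, reads are not independent molecules. Groups came from the treatment label and columns were matched by title.

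The filterByExpr function of edgeR 4.0.16 (R 4.3.3; minimum count 10, minimum total 15) kept 7207 of 28251 detected genes. Counts were fitted with the robust quasi-likelihood F test after TMM scaling, adjusted by Benjamini-Hochberg over all tested genes, with a gene called at an adjusted p under 0.05. The SE is the size of the log2 fold change divided by the square root of F, and 95% intervals use the fit's degrees of freedom. CPM were computed here relative to the tested genes' TMM-scaled counts. The fit was tested on simulated data. Library pairs within a group differed by more than sampling noise (chi-square per degree of freedom 3.75 to 6.61). Gene positions are from GENCODE M21 on GRCm38, which held all 42 identifiers, and promoters are from RefSeq.

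The 42 genes, the other lists and the tests were chosen with earlier results of these data known. Values in every library are given for Hspa5, the sensors and factors, up to 6 called genes per step by adjusted p and the gene of each step with the smallest log2 fold change, and, picked after their values were seen, for Hyou1. For each other list, up to 4 called genes by adjusted p are named. Alternatives were RLE size factors, library size only, no count filter, a minimum count of 30, DESeq2 1.42.0, limma-voom (limma 3.58.1), the replicate number as a block, thinning to the smallest library, the receptor-read share as a covariate (log2) and leaving out each library.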

Additional observations from a re-analysis of the deposited data

How the results depend on the processing

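The count of ER pathway genes called higher stayed between 19 and 30 over 15 alternatives, against 28 as reported, and 18 of the 28 calls held in all of them. The fits without 1 library gave 25 to 30 higher and 0 to 1 lower. The 1 was Ern1 without sham replicate 2, where it passed the filter through its sham libraries. The median log2 fold change was 0.94 to 1.12 in those fits and 0.92 to 1.06 in the others, the highest without a count filter (1.06). Of all tested genes, the receptor-read covariate left 488 higher and 381 lower, and DESeq2 called 578 lower; the fits without 1 library gave 853 to 1073 higher and 742 to 960 lower. The covariate took away 10 of the calls among the ER genes (Hspa5, Hsp90b1, Calr, Dnajb11, Dnajc3, Sec63, Spcs1, Rpn2, Ddost and Edem1) and added 1 (Hyou1), and the cause was not tested.

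Among the 42 genes and the genes of the other lists that were compared one by one, the sign turned in some alternatives for 7 genes, none of them called. Each alternative was fitted to the whole table, but signs were compared for these genes only. Sec62 was at 0.07, 0.03 and 0.25 without overloaded replicate 1, overloaded replicate 2 and sham replicate 2 (range over left-out libraries -0.49 to 0.25), Xbp1 at -0.045 with the covariate, Ddit3 at 0.084 without overloaded replicate 2 (range -0.70 to 0.08) and Eif2ak3 at 0.10 without sham replicate 2 (range -0.26 to 0.10). Stt3b was at -0.11 with the covariate, and Tusc3 at 0.30 with it, 0.096 without overloaded replicate 3 and 0.108 without sham replicate 1 (range -0.27 to 0.11). Atf6 was at -0.041 with library size only, -0.046 by limma-voom, -0.062 with the replicate block, -0.082 with the covariate, and -0.50, -0.046 and -0.022 without overloaded replicate 1, sham replicate 1 and sham replicate 3 (range -0.50 to 0.30).

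Deviations of same-numbered libraries from their group means had correlations of 0.00822, 0.0144 and 0.0149 across genes. Those of unlike-numbered libraries had correlations from -0.0250 to 0.0112. Deviations from a mean of 3 libraries balance out, so these values cannot decide whether the numbers pair libraries. With the replicate number as a block, 27 ER genes were higher and 0 lower, with a median of 0.97, and 1043 and 993 of all genes. With counts this low, changes in Ddit3, Ppib, Syvn1 and Ern1 could be measured only coarsely.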

Other observations

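Outside the 42 genes, 3 tested genes held the ERSE in their promoter window. Hnrnpa3, an RNA-binding protein gene, was called higher (log2 fold change 0.74, edgeR adjusted p = 0.0461), while Pan2 (0.33, adjusted p = 0.639) and Spats2l (-0.35, adjusted p = 0.451) were not called. The receptor-read share of overloaded library 2, 1080 CPM of the total, was above that of sham library 3, 778 CPM, although the group means were 539 ± 471 and 1328 ± 510 (SD, overloaded and sham, n = 3 each). Mitochondrial genes held 9.08 ± 1.77% of the counts in overloaded and 9.69 ± 1.18% in sham libraries (exact two-sided permutation p = 0.6).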
